A study of Mus musculus with 47 samples.

Results

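The loss of the pregnane X receptor (PXR, encoded by Nr1i2) was examined in the livers of antibiotic-treated (ATB) female mice by comparing 6 Pxr-/- with 6 Pxr+/+ animals. Every array carrying these labels was used, giving 12 of the 47 liver arrays of the study. All 12 mice were C57BL/6J littermates born to Pxr+/- parents, about 6 months old, and drank water holding ampicillin and neomycin at 1 g/L each and vancomycin at 0.5 g/L for 2 weeks before they were killed at ZT6, that is 6 h after lights on. The arrays of untreated control (Cont) females and of ATB males, 6 Pxr-/- and 6 Pxr+/+ mice each, were set beside the ATB females. All 47 arrays, those of untreated males included, also entered the normalization and the shared estimate of the spread. The SE and adjusted p of the ATB female comparison therefore rest on them too. Each group was housed in its own 2 cages, from each of which 3 mice went on arrays. Mice were caged by sex and genotype, so differences between cages cannot be fully told apart from the genotype. The sources used here also do not tie a mouse to its cage, so cage could not enter the test. The null allele was made in an earlier line and backcrossed on C57BL/6J, and the mice carried it in all cells of the body rather than in hepatocytes alone.

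PXR is a nuclear receptor of liver and intestine that senses drugs, steroids, bile acids and compounds made by gut bacteria. Once bound by a ligand it pairs with the retinoid X receptor and turns on genes for the P450 oxidases of the Cyp3a and Cyp2c families, for the enzymes that conjugate their products with sulfate, glucuronic acid or glutathione, and for the transporters that carry them out of the cell. Without ligand the receptor can be held with corepressors at its targets. The antibiotics remove much of the gut flora and, with it, bacterial ligands, so the comparison asks which liver transcripts depended on PXR in females once this source was reduced.

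The promoters of the genes with the largest changes are shown first, because PXR binds pairs of the half-sites AGGTCA and AGTTCA. They are the 250 bases before the RefSeq start (GRCm38.p6), written 5′ to 3′ along the gene, with any half-site on either strand in capitals. The first 3 genes were the most increased in Pxr-/- ATB females, Ntrk2 was the most decreased, and Cyp3a11 is the classical PXR target. The windows lie at chr19:39006769-39007018, plus strand for Cyp2c55, at chr7:13623717-13623966, plus strand for Sult2a5, at chr6:34412112-34412361, plus strand for Akr1b7, at chr13:58806319-58806568, plus strand for Ntrk2 and at chr5:145879855-145880104, minus strand for Cyp3a11.
Cyp2c55: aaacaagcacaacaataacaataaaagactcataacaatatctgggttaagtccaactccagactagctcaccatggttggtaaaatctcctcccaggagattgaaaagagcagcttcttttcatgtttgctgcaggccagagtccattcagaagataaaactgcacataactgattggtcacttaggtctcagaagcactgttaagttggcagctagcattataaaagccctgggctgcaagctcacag
Sult2a5: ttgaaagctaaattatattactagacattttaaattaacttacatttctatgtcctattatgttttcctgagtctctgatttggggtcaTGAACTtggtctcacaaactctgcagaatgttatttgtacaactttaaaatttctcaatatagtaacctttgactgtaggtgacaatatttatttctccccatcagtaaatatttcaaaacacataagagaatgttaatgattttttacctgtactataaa
Akr1b7: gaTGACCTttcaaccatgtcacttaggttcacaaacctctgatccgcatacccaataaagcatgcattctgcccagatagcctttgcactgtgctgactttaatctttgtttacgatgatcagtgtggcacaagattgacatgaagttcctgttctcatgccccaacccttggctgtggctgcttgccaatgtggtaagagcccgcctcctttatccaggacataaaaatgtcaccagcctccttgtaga
Ntrk2: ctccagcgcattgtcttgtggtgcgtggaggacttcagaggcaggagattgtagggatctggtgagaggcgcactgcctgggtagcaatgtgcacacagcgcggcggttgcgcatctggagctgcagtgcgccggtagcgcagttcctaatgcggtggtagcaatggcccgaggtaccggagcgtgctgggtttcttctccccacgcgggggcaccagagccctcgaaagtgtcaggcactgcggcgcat
Cyp3a11: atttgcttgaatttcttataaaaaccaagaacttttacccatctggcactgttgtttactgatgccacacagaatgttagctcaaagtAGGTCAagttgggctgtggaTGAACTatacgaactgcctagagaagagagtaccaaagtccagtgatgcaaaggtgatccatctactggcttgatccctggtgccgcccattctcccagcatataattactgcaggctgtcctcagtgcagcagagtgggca

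Cyp2c55 and Ntrk2 held no half-site in this window, Sult2a5 and Akr1b7 held 1 each and Cyp3a11 held 2. A half-site on either strand was present in 24.2% of the 32851 promoters of the RefSeq table. A direct repeat of 2 half-sites spaced by 3 bases was present in 0.0122% of them, a direct repeat spaced by 4 bases in 0.0244% and an everted repeat spaced by 6 bases in 0.00913%, and no promoter of a called gene held one. Promoters were available for 30 of the 39 genes that were higher in Pxr-/- mice, of which 14 held a half-site, and for 8 of the 11 that were lower, of which 5 held one. Over all 27025 genes of the table the share with a half-site was 26.7%. Sites farther from the start were not searched.

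The 12 arrays were alike in quality. The 75th percentile of the signal ran from 246 to 341 in Pxr+/+ and from 262.5 to 310 in Pxr-/- ATB females, and the groups overlapped (difference on the log2 scale 0.00, 2-sided exact permutation p = 0.996, smallest possible p = 0.00216). Between 31899 and 34379 of 56605 gene probes stood well above background on each array. All 26 hepatocyte markers, such as those for plasma proteins, were measured, and their mean log2 signal was 16.57 to 16.87 in Pxr+/+ mice and 16.49 to 16.77 in Pxr-/- mice, so that the tissue was liver by these markers. The 4 sex-linked genes examined separated all 47 arrays by the labelled sex. Each of the 6 slides carried 1 Pxr-/- and 1 Pxr+/+ array of ATB females, and the 12 arrays were washed in 3 batches that each held both genotypes.

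The probe for Nr1i2 itself did not fall to background. Its log2 signal ran from 11.57 to 12.41 (median 11.99) in Pxr+/+ mice and from 10.98 to 11.82 (median 11.58) in Pxr-/- mice, and it was well above background on all 12 arrays. The groups overlapped, and the change of −0.50 ± 0.18 (SE, adjusted p = 0.728) did not pass the test. The probe lies at chr16:38248745-38248804 (mm9), and whether this stretch belongs to the deleted part of the gene is not given in the sources used here, so that the probe does not check the genotype labels. Cyp2c55, Ces2a and Akr1b7, described next, separated the 6 Pxr-/- from the 6 Pxr+/+ mice without overlap. They were picked from this same comparison, however, so they do not check the labels either.

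Across 21874 genes with a probe above background, PXR loss in ATB females came with higher signal at 39 genes (0.178%) and lower signal at 11 (0.0503%), by limma with a Benjamini-Hochberg adjusted p of at most 0.05 and a fold change over 1.2. The largest increases included enzymes of drug and steroid metabolism (Cyp2c55, Sult2a5, Akr1b7 and Ces2a), while none of the genes that fell belonged to a gene list used here and 6 of the 11 lie on chromosome 16, which also carries Nr1i2. The median log2 change over all genes was 0.00. At the called probe the mice of both groups did not overlap for 34 of the 39 genes that rose and 5 of the 11 that fell. At the brightest probe of each gene, all Pxr-/- mice were above all Pxr+/+ mice in 0.366% of the 21874 genes and below them in 0.0731%. Of the 52 called probes, 49 changed in the same direction on all 6 slides and 3 on 5 slides. All 52 kept their direction in each of the 3 wash batches, of which batch 3 held only the arrays of slide 6. The arrays are those that gave the calls, so these counts describe the calls and are no separate test of them.

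**Figure D1:**
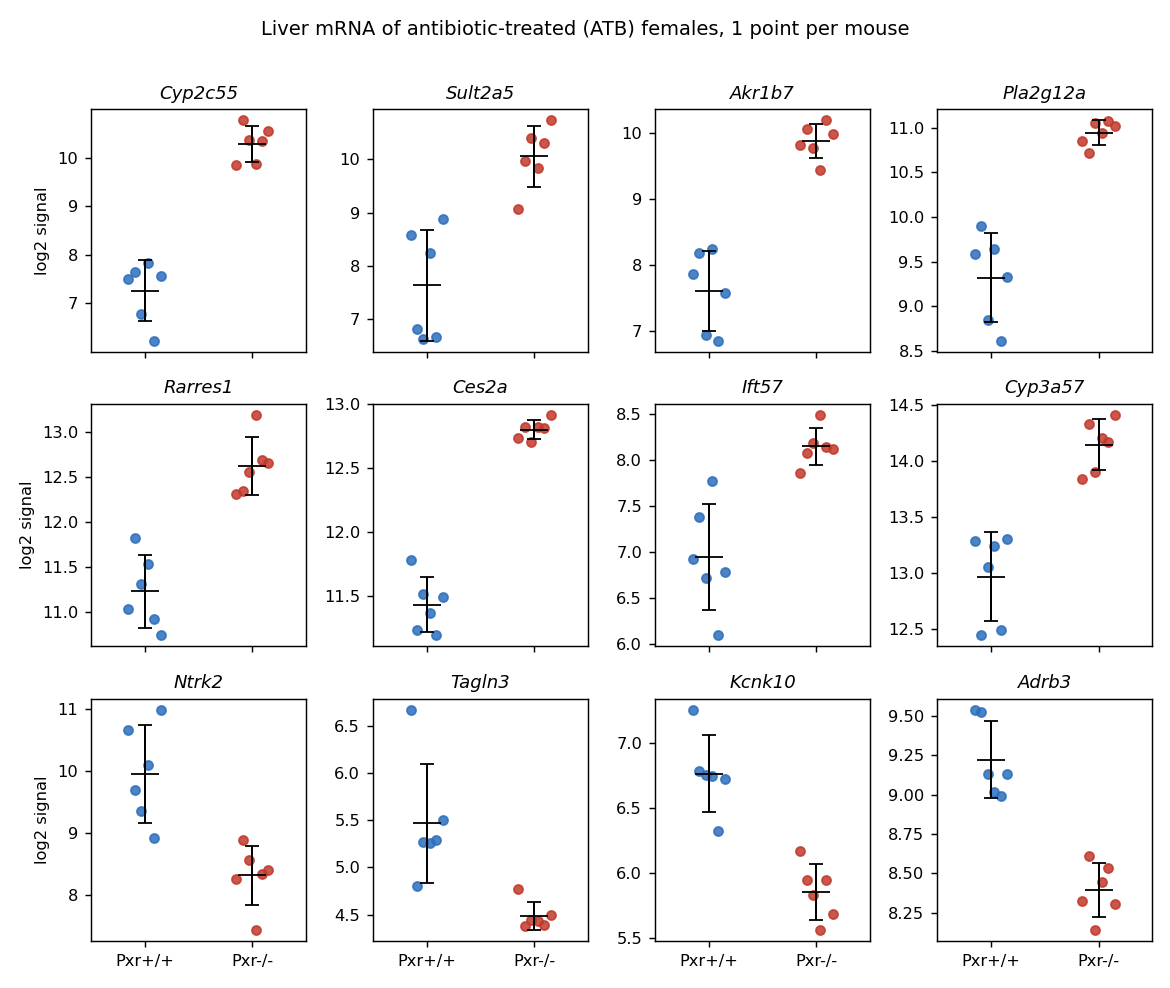
Log2 signal (vertical axes) of the 8 genes most increased and the 4 genes most decreased in Pxr-/- ATB females among called genes whose groups did not overlap. Each point is a mouse (6 Pxr+/+ in blue, 6 Pxr-/- in red), and bars give the mean ± SD. All Cyp2c55 values of Pxr-/- mice lie at 9.84 or above and all those of Pxr+/+ mice at 7.84 or below.

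Cyp2c55, a P450 that oxidises arachidonic and linoleic acid, showed the largest increase. Its log2 signal ran from 6.23 to 7.84 (median 7.54) in Pxr+/+ mice and from 9.84 to 10.77 (median 10.35) in Pxr-/- mice. All Pxr-/- mice were above all Pxr+/+ mice, and the log2 change was 3.03 ± 0.25 (SE, adjusted p = 3.52e-11), an 8.16-fold increase, with 2.23 at the second probe of the gene. The other called member of the Cyp2c family was Cyp2c38, at 0.65 ± 0.13 (SE, adjusted p = 0.0172). These were 2 of 16 measured Cyp2c genes, and the median change of the family was 0.04. Cyp2c70, the enzyme that makes muricholic acids in mice, had the lowest p of the others, with a change of −0.22 (adjusted p = 1).

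The Cyp3a family, the P450s that oxidise the widest range of drugs and steroids, had 2 called genes. All 8 measured members had a change above 0, with a median of 0.51 against 0.00 over all genes, and 2 passed the test, both higher. Cyp3a57 ran from 12.45 to 13.30 (median 13.15) in Pxr+/+ mice and from 13.84 to 14.41 (median 14.19) in Pxr-/- mice, a change of 1.17 ± 0.15 (SE, adjusted p = 4.99e-06). Cyp3a25 ran from 13.02 to 14.03 (median 13.89) in Pxr+/+ mice and from 14.46 to 15.11 (median 14.84) in Pxr-/- mice, a change of 1.13 ± 0.16 (SE, adjusted p = 3.65e-05). For both genes every Pxr-/- mouse was above every Pxr+/+ mouse. The other members did not pass the test, Cyp3a11 among them, with a signal from 14.64 to 15.52 (median 15.41) in Pxr+/+ mice and from 15.63 to 16.07 (median 15.69) in Pxr-/- mice. All 6 Pxr-/- mice were above all 6 Pxr+/+ mice for Cyp3a11 too, but the change of 0.51 ± 0.17 (SE) had an adjusted p of 0.69 (95% interval 0.15 to 0.86). Members of this family share long stretches of sequence and a probe may read more than 1 of them.

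Carboxylesterases of the Ces2 cluster on chromosome 8, which cleave ester drugs and triglycerides, rose at 3 genes. Ces2a ran from 11.19 to 11.78 (median 11.43) in Pxr+/+ mice and from 12.70 to 12.92 (median 12.82) in Pxr-/- mice. Its change was 1.37 ± 0.10 (SE, adjusted p = 2.6e-12), or 2.59-fold, and the groups did not overlap. Ces2f followed at 1.07 ± 0.12 (SE, adjusted p = 5.05e-07) and Ces2b at 1.05 ± 0.23 (SE, adjusted p = 0.0331), while Ces2c had 1.04 and just missed the threshold (adjusted p = 0.0527). An unnamed transcript, BQ563014, on the same chromosome had 0.72 ± 0.11 (SE, adjusted p = 0.00033).

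Among the reductases and dehydrogenases, Akr1b7, an aldo-keto reductase that detoxifies aldehydes from lipids and steroids, ran from 6.86 to 8.25 (median 7.72) in Pxr+/+ mice and from 9.44 to 10.18 (median 9.90) in Pxr-/- mice. The groups lay more than 1 log2 unit apart, and the change was 2.26 ± 0.24 (SE, adjusted p = 4.52e-08), or 4.79-fold. Aldh1a1, which oxidises retinal to retinoic acid, ran from 15.39 to 16.14 (median 15.88) in Pxr+/+ mice and from 15.99 to 16.88 (median 16.49) in Pxr-/- mice. Here the groups overlapped at the edges and the change was 0.65 ± 0.14 (SE, adjusted p = 0.0331). In the list of carboxylesterases and other phase I enzymes, 4 of 34 measured genes passed the test, all higher, with a median change of 0.15.

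Sulfotransferases of the Sult2a family, which add sulfate to steroids and bile acids and are expressed mostly in female liver, were the second large group. Sult2a5 ran from 6.63 to 8.88 (median 7.52) in Pxr+/+ mice and from 9.08 to 10.74 (median 10.15) in Pxr-/- mice. The groups did not overlap, although the Pxr+/+ mice spread over more than 2 log2 units, and the change was 2.43 ± 0.34 (SE, adjusted p = 3.65e-05), or 5.38-fold. Sult2a4 changed by 1.31 ± 0.27 (SE, adjusted p = 0.0172). Sult2a6 changed by 1.26 ± 0.28 (SE, adjusted p = 0.0331) and had 1.17 at its dimmer probe (adjusted p = 0.826). At the called probes the groups overlapped for both genes. The same Pxr+/+ mouse, replicate 2, was lowest for both, with 11.09 for Sult2a4 against 12.93 or more in the other Pxr+/+ mice. Sult2a7 had 1.54 and Sult2a1 1.12, without passing the test (adjusted p = 0.173 and 0.248). Papss2, which makes the sulfate donor PAPS, rose by 0.59 ± 0.12 (SE) at one probe (adjusted p = 0.0225) and had 0.46 at its brighter probe (adjusted p = 0.264). In all, 4 of 19 measured genes of sulfate conjugation were higher, none was lower, and the median change was 0.43. The Sult2a genes are near-identical copies, so the share of each in these signals is uncertain.

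Of the other conjugating enzymes, Ugt2a1, a glucuronosyltransferase, was the 1 called gene of 15 measured. It ran from 9.12 to 9.61 (median 9.40) in Pxr+/+ mice and from 9.82 to 10.13 (median 9.97) in Pxr-/- mice, without overlap, a change of 0.61 ± 0.13 (SE, adjusted p = 0.0172). Ugt2b34 followed with 0.47 (adjusted p = 0.113). None of 21 glutathione S-transferases passed the test, the lowest p being that of Gstm2 with 0.50 ± 0.14 (SE, adjusted p = 0.316) and of Gstm4 with 0.50 (adjusted p = 0.587).

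No gene of the transport lists passed the test in the main analysis, though Abcc3 passed it under 4 other normalizations. Abcc3, which exports conjugated bile acids and drugs into blood, ran from 13.70 to 14.23 (median 14.05) in Pxr+/+ mice and from 14.33 to 14.67 (median 14.52) in Pxr-/- mice. The groups did not overlap, yet the change of 0.51 ± 0.12 (SE) missed the threshold (adjusted p = 0.0637). No member of the 16 ABC efflux transporters or the 15 uptake transporters measured was called. Slco1a4, an organic anion carrier, had −0.06 ± 0.20 (SE, adjusted p = 1) and a 95% interval of −0.47 to 0.36. Outside these lists, Slc13a2, a sodium-coupled carrier of citrate and other dicarboxylates, rose by 1.35 ± 0.30 (SE, adjusted p = 0.0354), with overlap of the groups. Pdzk1, a scaffold that holds the high-density lipoprotein receptor at the hepatocyte surface, rose at both of its probes, by 0.49 ± 0.10 (SE) at the larger (adjusted p = 0.015) and by 0.43 at the other.

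Major urinary proteins (Mup), secreted carriers of pheromones whose genes form a dense cluster on chromosome 4, held 4 called genes among 14 measured. Mup5 had 1.05 ± 0.23 (SE, adjusted p = 0.0359), Mup6 0.97 ± 0.22 (SE, adjusted p = 0.0478), Mup20 0.63 ± 0.14 (SE, adjusted p = 0.0352) and Mup-ps16 0.59 ± 0.13 (SE, adjusted p = 0.0238). Other probes of these genes did not pass the test, with 0.80 for Mup6 (adjusted p = 0.718), 0.39 for Mup20 (adjusted p = 0.599) and 1.28 for Mup-ps16 (adjusted p = 0.156). Among 23 other settings, those without 1 array included, the call was kept in 7 for Mup6, 9 for Mup20, 11 for Mup5 and 13 for Mup-ps16. At the called probes all Pxr-/- mice were above all Pxr+/+ mice for Mup5, Mup6 and Mup-ps16 but not for Mup20. Mup transcripts are almost identical in sequence, so that these probes cannot be assigned to single genes. Mup20 was also the 1 called gene of 19 measured male-biased genes, whose median change was 0.12. Mup5, Mup6 and Mup-ps16 are not on that list, but their signal was also higher in males. In Pxr+/+ ATB males and females the mean log2 signal was 17.29 and 15.04 for Mup5 and 16.55 and 13.32 for Mup6. For Mup-ps16 it was 17.54 and 15.72. These sex differences were not tested.

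The remaining large increases were in genes of other functions. Pla2g12a, a secreted phospholipase A2, ran from 8.61 to 9.90 (median 9.46) in Pxr+/+ mice and from 10.72 to 11.08 (median 10.98) in Pxr-/- mice, a change of 1.63 ± 0.19 (SE, adjusted p = 7.98e-07). Rarres1, a membrane protein first found as a retinoid-responsive gene, ran from 10.73 to 11.82 (median 11.17) in Pxr+/+ mice and from 12.31 to 13.19 (median 12.60) in Pxr-/- mice, a change of 1.40 ± 0.22 (SE, adjusted p = 0.000246). For both the groups were apart in every mouse. Igfbp2, a hepatic carrier of insulin-like growth factors, rose by 0.87 ± 0.17 (SE, adjusted p = 0.0122). Rnf150, a RING finger protein, had 1.08 ± 0.19 (SE, adjusted p = 0.00161) at one probe and 0.00 at its other probe, so that the call rested on 1 probe of 2. Adamtsl1, a matrix protein, had 1.05 ± 0.17 (SE, adjusted p = 0.000641), with 0.31 and 0.40 at its other probes. Krt31, a hair keratin, had 1.04 ± 0.16 (SE, adjusted p = 0.000145) and Ldlrad4, a brake on TGF-β signalling, 0.82 ± 0.12 (SE, adjusted p = 0.000148).

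Smaller or dimmer increases made up the rest. Tango6, a factor of Golgi organisation, had 0.98 ± 0.20 (SE) and its other probe 0.16. Zbed4, a zinc finger gene, had 0.95 ± 0.17 (SE) at a probe above background in 2 of 6 Pxr+/+ and 6 of 6 Pxr-/- mice, and both its brighter probes were below 0. Ebf3, a transcription factor, had 0.64 ± 0.14 (SE) and was above background in 1 of 6 Pxr+/+ and 5 of 6 Pxr-/- mice. These 3 calls therefore rested on a single or a dim probe, and over the other settings the change ran from 0.47 to 2.35 for Zbed4 and from 0.31 to 2.00 for Ebf3. Smim22 rose by 0.86, Pou5f1 by 0.79, Olfr147 by 0.60 and Tdpoz8 by 0.54. Tdpoz8 had −0.02 at its brighter probe. Probes for intergenic transcripts on chromosomes 2 and 14 had 1.05 and 0.43, and for the latter the other probes of the transcript had −0.00 and −0.10.

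Decreases were fewer. Ntrk2, the receptor for brain-derived neurotrophic factor, ran from 8.91 to 10.99 (median 9.89) in Pxr+/+ mice and from 7.43 to 8.88 (median 8.36) in Pxr-/- mice. The highest Pxr-/- mouse was just below the lowest Pxr+/+ mouse, and the change was −1.64 ± 0.33 (SE, adjusted p = 0.0143). The predicted gene Gm6135 ran from 9.64 to 11.87 (median 11.34) in Pxr+/+ mice and from 9.35 to 10.19 (median 9.72) in Pxr-/- mice, a change of −1.38 ± 0.24 (SE, adjusted p = 0.00161). One Pxr+/+ mouse lay within the range of the Pxr-/- mice. Adrb3, the β3-adrenoceptor, fell by 0.83 on the log2 scale and Kcnk10, a potassium channel, fell by 0.91 (adjusted p = 0.0207 and 0.0474). Both were without overlap, and their dimmer probes had −0.29 and −0.28. The call was kept in 19 of 23 other settings for Adrb3 but in 8 of 22 for Kcnk10. Apol7b, an apolipoprotein L gene, had −0.65 ± 0.14 (SE, adjusted p = 0.0236), with overlap.

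The other 6 genes that fell lie on chromosome 16. Within 20 Mb of the Nr1i2 probe, 335 genes were measured, of which 2 were higher and 5 lower (0.597% and 1.49%), against 36 higher and 5 lower of the 21172 genes on other chromosomes (0.17% and 0.0236%). Pigx, a subunit of a mannosyltransferase for glycolipid anchors, ran from 9.99 to 10.78 (median 10.28) in Pxr+/+ mice and from 9.32 to 10.04 (median 9.69) in Pxr-/- mice, a change of −0.65 ± 0.12 (SE, adjusted p = 0.00602), with −0.67 at its other probe. Senp5, a SUMO protease encoded nearby, ran from 7.01 to 7.26 (median 7.23) in Pxr+/+ mice and from 6.34 to 6.80 (median 6.63) in Pxr-/- mice, a change of −0.58 ± 0.12 (SE, adjusted p = 0.0143). The groups overlapped for Pigx but not for Senp5. Tagln3, a calponin-like gene of neurons, had −0.98 ± 0.19 (SE, adjusted p = 0.00769), and its probe was above background in 5 of 6 Pxr+/+ and 1 of 6 Pxr-/- mice, so that the size of the change depended on the processing (−2.76 to −0.42 over the other settings). The long noncoding RNA Dubr had −0.56 ± 0.11 (SE, adjusted p = 0.015) and Impg2, a matrix proteoglycan of the retina, −0.999 ± 0.21 (SE, adjusted p = 0.0245), both with overlap.

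In the same interval, 2 genes rose. Ift57, a protein of the cilium, ran from 6.09 to 7.77 (median 6.85) in Pxr+/+ mice and from 7.86 to 8.49 (median 8.13) in Pxr-/- mice, a change of 1.204 ± 0.26 (SE, adjusted p = 0.0238), and Tctex1d2, a dynein light chain, had 0.65 ± 0.14 (SE, adjusted p = 0.0247). Neither pair of groups overlapped. Spidr, a DNA repair scaffold at −22.4 Mb from the Nr1i2 probe, fell by 0.72 at one probe (adjusted p = 0.0146) and had 0.09 at its brighter probe. The median change of the 335 genes was −0.01, so that the interval as a whole was not shifted. Whether DNA kept from the strain in which the allele was made lies near Nr1i2 in these mice was not tested.

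**Figure D2:**
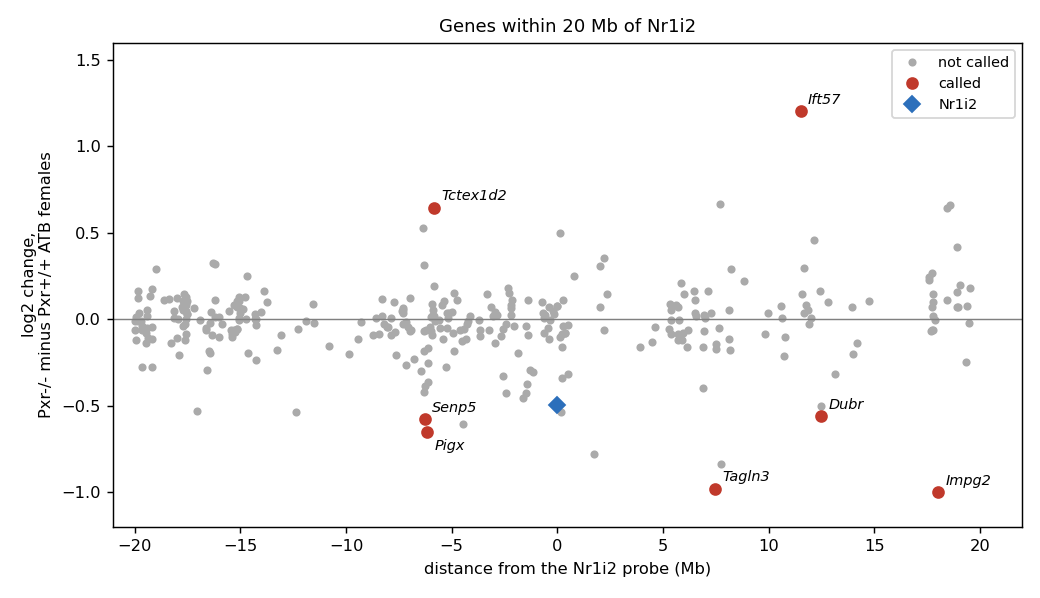
Log2 change between Pxr-/- and Pxr+/+ ATB females (vertical axis) of the 335 genes within 20 Mb of Nr1i2, by distance from the Nr1i2 probe in Mb (horizontal axis), each at its brightest probe. The 7 called genes (red) lie between −6.27 and 18.0 Mb, on both sides of Nr1i2 (blue diamond).

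Few of the wider metabolic lists held a called gene in ATB females. The 35 lists described here included 7 with a called gene. None of the 22 genes of bile acid synthesis and signalling, 36 nuclear receptors and partners, 27 of sterol synthesis and uptake, 33 of fatty acid and triglyceride synthesis, 41 of fatty acid oxidation and 13 Cyp4 hydroxylases was called, and all their medians lay between −0.00 and 0.04. For Fasn, the fatty acid synthase, the signal ran from 15.59 to 16.93 (median 16.09) in Pxr+/+ mice and from 15.70 to 16.37 (median 16.32) in Pxr-/- mice, with the groups overlapping and a 95% interval of −0.60 to 0.62 for the change. The elongases Elovl2, Elovl3 and Elovl5 had 0.20, 0.69 and 0.00, again with overlap and without passing the test (adjusted p = 1 for each). Of the bile acid genes, Cyp27a1 and Nr5a2 had the lowest p, with 0.21 and 0.14. In the other lists the genes of lowest p were Foxa1 (0.33) and Nr2f2 (0.21) among nuclear receptors and partners, Ggps1 (−0.26) and Ebp (−0.10) in sterol synthesis, Mogat2 (0.38) and Fads2 (0.22) in fatty acid synthesis, Vnn1 (0.62) and Bdh1 (−0.23) in fatty acid oxidation and Cyp4a12b (0.25) and Cyp4a12a (0.25) among Cyp4 hydroxylases, none past the test.

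Nor was any of the other PXR or CAR targets called. Cyp2b10, the target that PXR shares with the constitutive androstane receptor, had 0.19 ± 0.33 (SE) at its brightest probe (95% interval −0.48 to 0.86) and 0.66 ± 0.23 (SE, 95% interval 0.19 to 1.12, adjusted p = 0.721) at its dimmer probe, and the 3 measured Cyp2b genes had a median of 0.05. Alas1, which starts heme synthesis, had 0.25 ± 0.47 (SE) and Por, which passes electrons to the P450s, 0.11 ± 0.24 (SE). In the list of other drug-metabolizing P450s, none of 24 passed the test, and 18 had a change above 0, with the lowest p at Cyp2d13 (0.31) and Cyp2d9 (0.29). Among uptake transporters the lowest p were those of Slco1c1 (0.14) and Slco2a1 (−0.17). In total, 14 of 16 classical targets and named liver genes were measured, and 4 were higher (Cyp2c55, Akr1b7, Ces2a and Aldh1a1). No probe was named for Gsta1 or Ugt1a1.

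In glucose metabolism Igfbp2, given above, was the 1 called gene of 28, while Igfbp1, its insulin-suppressed relative, had −0.95 (adjusted p = 0.647). Female-biased genes of the growth hormone axis held no called gene among 24, although A1bg, a female-specific plasma protein, had −1.74 ± 0.49 (SE, adjusted p = 0.264) and Sult2a1 the 1.12 given above. The 18 clock genes, 32 chaperones, 29 acute phase proteins, 21 genes of the aryl hydrocarbon receptor and NRF2 and 26 cell cycle genes held none either, with medians of 0.04, −0.08, −0.05, 0.04 and −0.10. The lowest p among them were those of Dbp, Nfil3, Dnajb9, Hspa5, Hamp, Itih3, Gsr, Gclm, Mcm5 and Cdkn1a, at 1.68, −0.39, −0.38, −0.22, −0.68, −0.32, 0.24, 0.19, −0.40 and −0.94 on the log2 scale. Dbp, a clock output gene, ranged from 8.48 to 13.97 within Pxr+/+ mice, more than between the genotypes.

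No marker of an immune cell type passed the test. Of 45 macrophage and Kupffer cell markers, 44 had a change below 0, with a median of −0.38 against 0.00 over all genes, and none passed the test, the lowest adjusted p being 0.482 for Ms4a6b. The mean log2 signal of the list was 8.39 to 9.67 in Pxr+/+ mice and 8.38 to 9.20 in Pxr-/- mice, so that the groups overlapped. All 9 measured MHC class II presentation genes were below 0 (median −0.37), led by H2-DMa with −0.40 ± 0.17 (SE, adjusted p = 0.901). For 41 interferon-stimulated genes the median was −0.21, for 29 T and NK cell markers −0.19, for 26 sinusoidal endothelial markers −0.14, for 27 stellate cell markers −0.08 and for 13 cholangiocyte markers −0.25. The 14 B cell and 11 neutrophil markers had 0.01 and −0.08, and 10 adipose and pancreas genes −0.20. Within their own lists, the lowest p were at Oas3 (−0.36) and Ifit2 (−0.32) for interferon, Bmp2 (−0.33) and Flt4 (−0.32) for endothelium and Pkhd1 (−0.50) and Sox9 (−0.39) for cholangiocytes. No gene of these lists was called. Not above background on any of the 12 arrays were Ncr1, Eomes and Sh2d1a of T and NK cells, Cd79a and Blk of B cells, Ngp, Ltf and Stfa2l1 of neutrophils and Adipoq of adipose tissue. The part of these cell types in the called genes was not tested, and in whole liver fewer cells of a type and less RNA per cell cannot be told apart.

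**Figure D3:**
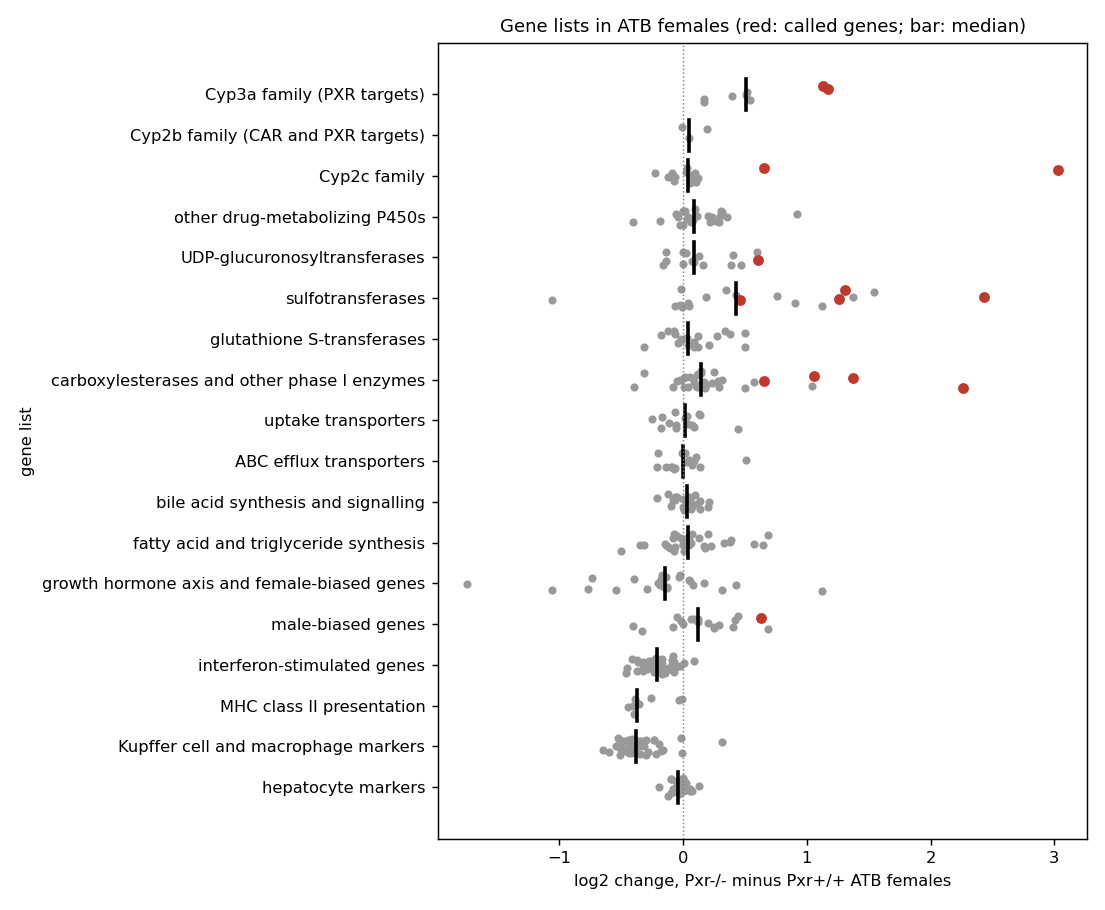
Log2 change between Pxr-/- and Pxr+/+ ATB females (horizontal axis) for 18 gene lists. Each point is a gene at its brightest probe, called genes are red, and the bar is the list's median. Red points appear in the Cyp3a, Cyp2c, glucuronosyltransferase, sulfotransferase, carboxylesterase and male-biased lists, while 44 of 45 macrophage points and all MHC class II points lie left of 0.

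The same genotypes were then set side by side in control females, which share no array with the ATB females. Of the 39 genes that rose in ATB females, 25 were also called higher in control females, where 0.238% of all genes were called higher, and none was called lower. Of the 11 that fell, 9 were called lower, against 3.85% of all genes. All 39 had a change above 0 in control females and all 11 one below 0. Cyp2c55 had 2.43 (adjusted p = 3.62e-08) in control females, Akr1b7 2.05 (adjusted p = 5.56e-07), Sult2a5 2.07 (adjusted p = 0.000469) and Pla2g12a 1.83 (adjusted p = 5.69e-08). The 52 higher and 843 lower genes of control females stood beside a median change of −0.11 over all probes, against 0.01 in ATB females. The macrophage list had −0.76 in control females. Among these arrays, the 75th percentile of the signal had a median of 270.25 without PXR and 304 with it. The ranges, 235 to 343 and 281 to 318, overlapped. How far array brightness enters the control female counts, list medians and the difference from ATB females was not tested.

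The difference between the effects of PXR loss in ATB and control females was itself tested, and no gene passed (0%), nor was any called under the other settings except 1 with the authors' own values. At an unadjusted p below 0.05 in any probe there were 3065 of the 21874 genes, against 1525 for PXR loss in ATB females itself. Neither count was set against the number that chance gives over 32975 probes, so neither is a number of changed genes. The first also holds the unequal medians over all probes, 0.01 in ATB and −0.11 in control females. The smallest adjusted p of the difference was 0.444. Ces2a came closest among the called genes, with 1.37 in ATB and 0.77 in control females, a difference of 0.60 (95% interval 0.31 to 0.90, adjusted p = 0.444). Cyp3a57 had 1.17 and 0.48, a difference of 0.69 (95% interval 0.26 to 1.12, adjusted p = 0.444), and Cyp3a25 1.13 and 0.47, a difference of 0.66 (95% interval 0.20 to 1.11, adjusted p = 0.444). For Cyp2c55 the difference was 0.60 (95% interval −0.11 to 1.31, adjusted p = 0.541), and for Apol7b, which fell less in ATB females, 0.75 (95% interval 0.36 to 1.15, adjusted p = 0.444). The intervals hold for 1 gene at a time and are not adjusted for the number of genes. The unequal counts of called genes in ATB and control females are therefore no test of a difference between them.

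**Figure D4:**
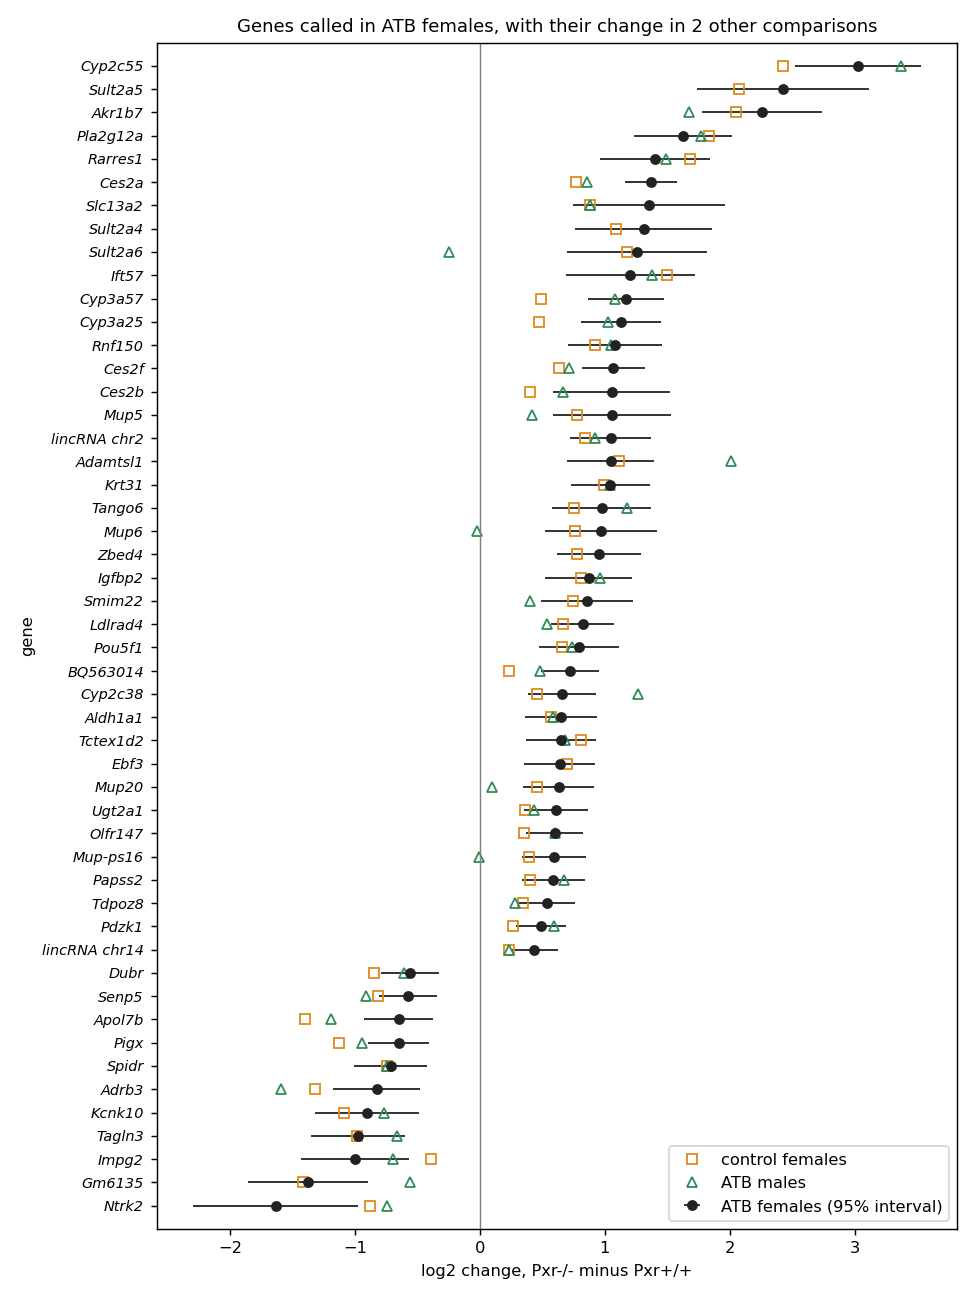
Log2 change between Pxr-/- and Pxr+/+ mice (horizontal axis) for the 50 genes called in ATB females, 1 gene per line. Black points with 95% intervals are ATB females, orange squares control females and green triangles ATB males. The 4 genes whose probes were not above background on any ATB male array have no triangle. That of Sult2a6 shows no measured change, with 1 of 6 Pxr+/+ and 0 of 6 Pxr-/- male arrays above background. Every square lies on the same side of 0 as its black point.

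In ATB males, 75 genes were higher and 198 lower (0.343% and 0.905%) without PXR, beside a median change of −0.13 over all probes. Their 75th percentile of the signal had a median of 243.5 without PXR and 275 with it. The ranges, 224.5 to 264 and 250 to 293, overlapped. How far array brightness enters the male counts and the difference between the sexes was not tested. Of the 39 genes that rose in ATB females, 24 were called higher in ATB males, and of the 11 that fell, 6 were called lower. Probes for Sult2a5, Sult2a4, Zbed4 and Ebf3 were not above background on any ATB male array, and of the other 35 genes that rose in females, 32 had a change above 0 in males. Sult2a6, among those not above 0, was above background on 1 of 6 Pxr+/+ and 0 of 6 Pxr-/- ATB male arrays. Its male value of −0.25 therefore shows no measured change. Cyp2c55 had 3.37 (adjusted p = 4.7e-13), Adamtsl1 2.01 (adjusted p = 3.64e-11) and Cyp2c38 1.27 (adjusted p = 1.93e-08) in ATB males. The macrophage list had a median of 0.16 and the MHC class II list −0.00 in ATB males, against −0.38 and −0.37 in ATB females.

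The test of the difference between ATB females and ATB males in the effect of PXR loss passed for 12 genes (0.0549%), of which 9 were above background on all arrays of both sexes. For the other 3 (Sult2a5, Moxd1 and Meig1) the effect could not be measured in one sex, and they are no evidence of a difference. All but Sult2a5 were called in ATB males and not in ATB females. The change of Cyp3a11 was 0.51 ± 0.17 (SE) in females and 2.40 ± 0.17 (SE) in males (adjusted p of the difference = 1.55e-05). Cyp3a16 had 0.39 ± 0.17 (SE) in females and 2.35 ± 0.17 (SE) in males (adjusted p of the difference = 5.09e-06), Cyp3a41a 0.17 ± 0.13 (SE) in females and 1.95 ± 0.13 (SE) in males (adjusted p of the difference = 1.58e-07) and Cyp3a59 0.54 ± 0.14 (SE) in females and 1.70 ± 0.14 (SE) in males (adjusted p of the difference = 0.00488). In Pxr+/+ mice the mean log2 signal of Cyp3a11 was 15.29 in ATB females and 12.11 in ATB males. In Pxr-/- mice it was 15.79 and 14.51, so this probe read higher in females of either genotype. That sex difference in level was not tested, and the probe may also read related Cyp3a genes. By quantitative PCR, the paper found no significant sex difference in Cyp3a11 among untreated Pxr+/+ mice. Because Cyp3a probes may share signal, the Cyp3a genes named here need not be separate cases of a difference between the sexes. Slco1a4 had −0.06 ± 0.20 (SE) in females and −2.21 ± 0.20 (SE) in males (adjusted p of the difference = 2.45e-05), the oxysterol hydroxylase Cyp39a1 −0.10 ± 0.17 (SE) in females and −1.29 ± 0.17 (SE) in males (adjusted p of the difference = 0.0384) and the retinol dehydrogenase Rdh16f2 −0.08 ± 0.11 (SE) in females and −0.81 ± 0.11 (SE) in males (adjusted p of the difference = 0.05).

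Sult2a5 was the 1 gene of the 12 that was called in females, and its probe was not above background on any ATB male array, so that no male change could be measured. Conversely, Moxd1 was not above background on any array of ATB females and Meig1 on 1 of 12, and both rose in males. Dtnb and Ankle2, with 0.20 and 0.24 in females and −0.35 and −0.29 in males, differed only at probes that were not the brightest of their genes, and the brightest had 0.01 and 0.09 in females. The changes of Cyp3a57 and Cyp3a25, which rose in females, were not among these 12, with 1.08 and 1.03 in males.

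**Figure D5:**
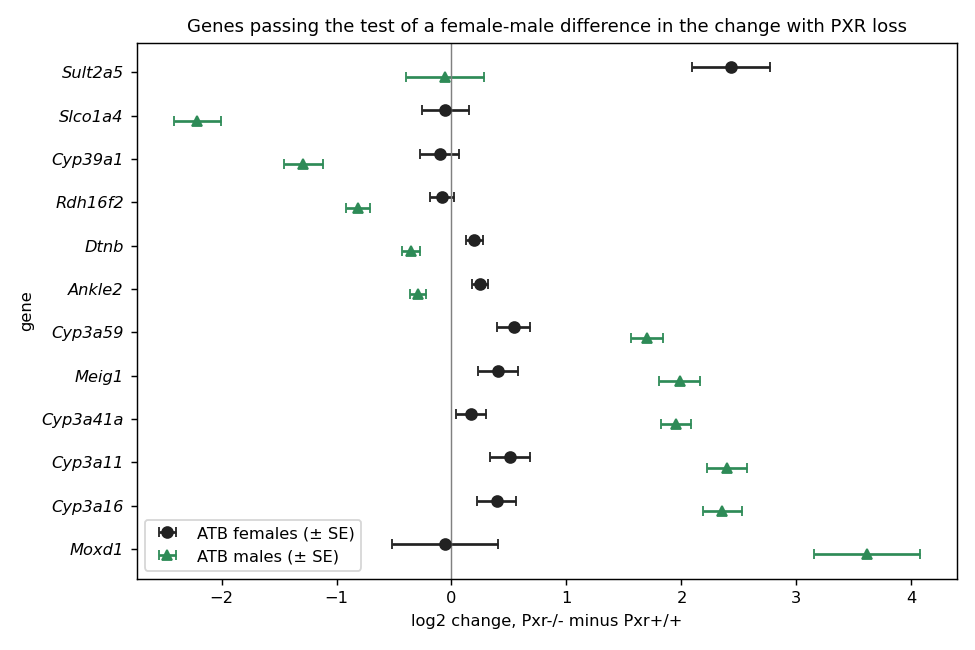
Log2 change between Pxr-/- and Pxr+/+ mice (horizontal axis, ± SE) in ATB females (black points) and ATB males (green triangles) for the 12 genes that passed the test of a difference between the sexes. For the 4 Cyp3a genes the female points span 0.17 to 0.54 and the male points 1.70 to 2.40. Sult2a5 in males and Moxd1 in females were not above background on any array, and Meig1 was on 1 of 12 in females, so that these 3 points show no measured change.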

How the data were processed

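Liver RNA was hybridised to 1-colour Agilent mouse arrays. Per the labels, spot intensity was read with Agilent Feature Extraction 10.10.1.1, and the authors deposited the scanner files with gMedianSignal as a linear intensity. They also deposited a table of processed log2 values, corrected for wash batch and normalized by CrossNorm, which was used as an alternative. From the scanner files, control spots and outlier spots were left out, spots of a probe were averaged (56605 gene probes), and a probe was kept where any 1 group had it well above background in 5 or more arrays (32975 probes, 21874 genes). Values were log2 transformed, the wash batch was removed, and CrossNorm was run on seeded stacks of 1 array per group (300 draws). The rule by which the authors filtered probes and stacked samples is not given in the sources used here. limma 3.58.1 (R 4.3.3) was fitted to all 8 groups with the wash batch as a term. Genes were called at a Benjamini-Hochberg adjusted p of at most 0.05 and a fold change over 1.2, and a gene counted as called where any of its probes was. In data simulated for the ATB female comparison on 32975 probes, 30 of 50 probes were recovered for an increase or a decrease of 0.5, 48 of 50 for an increase of 1 and 46 of 50 for a decrease of 1, with 11 false calls. The simulated noise was normal and independent between probes and arrays, without batch, cage or whole-array shifts, and the normalization was not rerun. These numbers therefore do not give the recovery or the false calls of the real arrays. Symbols were updated through RefSeq accessions for 1021 probes, and probe coordinates are mm9. The members and gene lists were chosen with earlier results of these data known. Genes were named by rules of size of change, list membership (called members, or the members of lowest p), position and prior use as PXR targets, not every low-p list member was given, and the remaining called genes were named after their values were seen. Array number limits the precision, and p-values measure the spread between mice of 2 cages per group. Same-numbered arrays of both genotypes were checked for pairing (r of their deviations from −0.22 to 0.26). Alternatives were other normalizations, filters, blocks and sample sets, and leaving out each array.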

Additional observations from a re-analysis of the deposited data

Results flagged for a closer look

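Among 126 groups of 6 mice examined, 12 held a mouse whose value lay far from the other 5, where chance gives about 1 in 20. In Pxr+/+ replicate 5 these were Pou5f1 (6.71, others 7.41 to 7.64), Cyp2c38 (14.06, others 14.61 to 14.93), Pdzk1 (12.15, others 12.54 to 12.76) and Ebf3 (4.33, others 4.61 to 4.73). In Pxr+/+ replicate 2 they were Sult2a4 (11.09, others 12.93 to 13.99), Gm6135 (9.64, others 11.18 to 11.87) and Cyp3a11 (14.64, others 15.22 to 15.52), and in Pxr+/+ replicate 1 Tagln3 (6.67, others 4.80 to 5.50). In Pxr-/- mice they were Sult2a4 (13.66, others 14.16 to 14.42), Tagln3 (4.78, others 4.38 to 4.50) and Elovl5 (14.58, others 14.84 to 14.99) of replicate 1 and Ebf3 (4.87, others 5.25 to 5.40) of replicate 5.

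The effect of PXR loss in ATB females less that in ATB males differed, on the log2 scale, by 2.15 for Slco1a4, 1.19 for Cyp39a1, 0.73 for Rdh16f2, 0.55 for Dtnb, 0.54 for Ankle2, −1.16 for Cyp3a59, −1.78 for Cyp3a41a, −1.89 for Cyp3a11 and −1.96 for Cyp3a16. The fit also gave 2.49 for Sult2a5, −3.67 for Moxd1 and −1.58 for Meig1, but their probes were above background on none or 1 of the 12 arrays of one sex, so that these values do not measure a difference.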

How the results depend on the processing

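Of the 50 called genes, 16 kept their call in every alternative in which their probe was tested, 20 kept it without any 1 array, and none changed direction. The call was kept least often for Mup6 (7 of 23 settings), Kcnk10 (8 of 22), Mup20 (9 of 23) and Ebf3 (10 of 22). Next came Sult2a6 (11 of 22) and Mup5, Ces2b and Aldh1a1 (11 of 23 each). The number of genes higher in Pxr-/- ATB females moved from 39 to 59 with quantile normalization, 60 with normexp and quantile normalization, 21 with spike-in scaling and 24 when only the 2 groups were fitted. The number lower moved from 11 to 7 with spike-in scaling, 7 with probes above background on all arrays and 4 with only the 2 groups. Leaving out 1 array gave 18 to 45 genes higher and 5 to 12 lower. There were 18 higher without Pxr+/+ replicate 5, 21 without Pxr-/- replicate 6, and 23 without Pxr+/+ replicate 3 or Pxr-/- replicate 4. There were 5 lower without Pxr+/+ replicate 1, 6 without Pxr+/+ replicate 6, and 7 without Pxr-/- replicate 2 or 6. The count for the difference from control females moved from 0 to 1 with the authors' values and stayed at 0 without any 1 array. The count for the difference from ATB males moved from 12 to 7 with spike-in scaling, 5 with the processed signal and 7 with only the groups compared, and ran from 8 to 13 without 1 array. The array brightness difference ran from −0.05 to 0.05 without 1 array. The cause of these moves was not tested.

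With a replicate block there were 40 genes higher and 11 lower, 0 for the difference from control females and 12 for that from males. The labels tie same-numbered arrays by their number alone. Their deviations correlated between −0.22 and 0.26, and 2 of 6 Pxr-/- arrays correlated best with their own number. So few correlations cannot exclude a weak pairing. The slide as a block gave 44 higher and 11 lower. Abcc3 passed the threshold under 4 of the normalizations (0.49 to 0.50). Dim probes limited what could be said of Zbed4, Ebf3 and Tagln3.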
